A study of Rattus norvegicus with 11 samples.

Results

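The genes described here are the motile cilium and axoneme genes of the rat, taken by their symbols: every Cfap, Dnah, Dnai, Dnaaf, Drc, Rsph, Tekt and Spag gene with a number, together with Foxj1 and Ccdc153. Of 42172 genes counted, 87 had such a symbol. They were followed in 11 RNA libraries of primary hippocampal neurons from Sprague Dawley rats at day 7 in culture. H1.4 CFT neurons (n = 4) carried an exogenous linker histone H1.4 whose C-terminal tail is altered by a frameshift. WT H1.4 neurons (n = 4) carried exogenous wild-type H1.4, and GFP neurons (n = 3) carried GFP as the control, so every group expressed an added protein. The study asked how neurons that express the frameshifted H1.4 differ. The way the proteins were delivered and the number of animals behind a culture are not given in the sources used here, so p-values measure the spread between libraries that the labels call biological replicates.

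The axoneme is the microtubule core of motile cilia and sperm flagella. Its outer doublets carry rows of dynein motors, held in register by a nexin link and by radial spokes that reach a central pair of microtubules, and the motors are assembled beforehand in the cytoplasm. In the brain, motile cilia belong to ependymal and choroid plexus epithelium, where Foxj1, a forkhead transcription factor, and RFX factors, which bind a palindromic promoter motif called the X-box, drive the genes of the axoneme. Neurons carry a primary cilium, which has no such motors.

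The group was selected on the measured rise of Cfap44 and Foxj1 in H1.4 CFT neurons, so for these genes the levels in the H1.4 CFT libraries are given as a description, with no test. The other members' p-values come from a fit over all 17294 genes with enough counts, and the share of all genes called is given with the first count of members in each comparison. Levels are in CPM, the share of a library's counts that a gene takes, scaled between libraries by the TMM method and not corrected for gene length, so they compare a gene between libraries and not one gene with another. Differences are log2 fold changes with the SE of the fit, so a rise or fall is given in log2 units. Libraries are given in the order of their replicate numbers, 1 to 4 for H1.4 CFT and WT H1.4 and 2 to 4 for GFP.

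The X-box was searched in the promoter sequences of 71 members, taken from RefSeq on the GRCr8 build (250 bases before to 50 bases after the start of the gene), which is not the build the counts were made on. The letters searched were GTNNCCNNNGNAAC on both strands. They occurred in 14 of the 71 promoters, 19.7%, against 2.1% of all 27457 rat promoters in the same table. Of 15 places found, 10 began within 100 bases of the start of the gene. The sites below are those of members picked by the naming rule given with the processing, shown so that members that rose, fell and did neither can be read side by side. Spag6, described further on but not picked by that rule, also held an X-box and passed in neither direction. They are read along the motif, with the fixed letters in capitals.
Cfap44: GTtgCCacaGcAAC
Dnah2: GTcgCCatgGcAAC
Dnah12: GTcaCCatgGaAAC
Spag6l: GTctCCaggGcAAC
Cfap61: GTttCCgtaGcAAC
Cfap45: GTtaCCacaGcAAC
Cfap298: GTtgCCcggGcAAC
Dnaaf2: GTtaCCatgGcAAC
The first 4 sites belong to genes that were higher in H1.4 CFT neurons than in WT H1.4 neurons, the Cfap61 site to a gene that was lower, and the last 3 to genes that passed in neither direction in that comparison. By that call, the X-box was in 4 of 20 promoters of higher members, in 1 of 5 promoters of lower members and in 7 of 38 promoters (18.4%) of members that passed in neither direction. The match describes the letters in the window and does not show a bound site. The shorter RFX letters GTTGCC, whose count includes copies inside an X-box, were in 36.6% of member promoters and 12.2% of all promoters. By call they were in 10 of 20 higher, 1 of 5 lower and 11 of 38 other tested promoters. The forkhead letters GTAAACA were in 4.23% of member promoters and 3.76% of all promoters. By call these were in 2 of 20, 0 of 5 and 0 of 38. Differences by call were not tested. Member promoters also had a higher median GC content, 57.3% against 52.3%, and a median of 14 CpG pairs against 7.

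**Figure D1:**
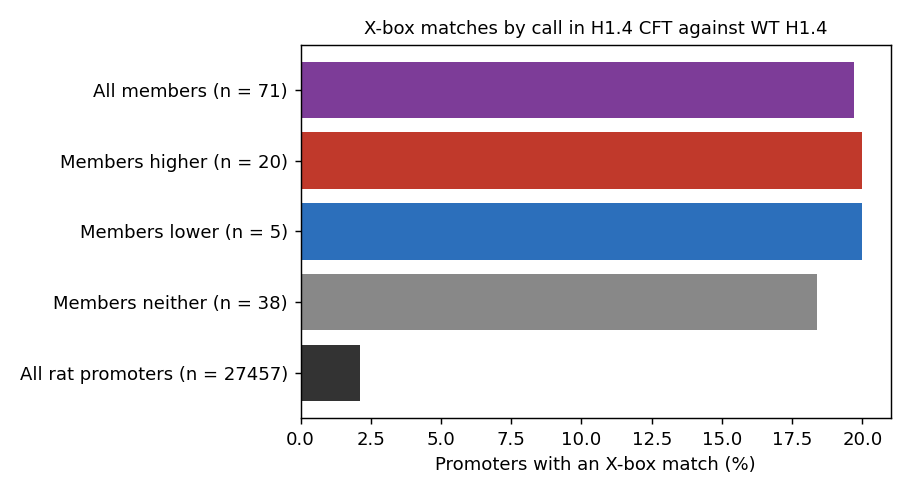
Share of promoters (%) with a match to the X-box letters, with the number of promoters in each class on the vertical axis. The bars of members that passed as higher, as lower and in neither direction stand for 4 of 20, 1 of 5 and 7 of 38 promoters, and the bar of all rat promoters is at 2.1%.

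Whole promoters are printed for the member with the highest fold change in H1.4 CFT neurons and for the member with the lowest, Cfap44 and Cfap57. The Cfap44 promoter, on GRCr8 at chr11:69789856-69790155, minus strand, holds an X-box in capitals that begins 17 bases before the start of the gene and lies on the strand opposite to it.
Cfap44: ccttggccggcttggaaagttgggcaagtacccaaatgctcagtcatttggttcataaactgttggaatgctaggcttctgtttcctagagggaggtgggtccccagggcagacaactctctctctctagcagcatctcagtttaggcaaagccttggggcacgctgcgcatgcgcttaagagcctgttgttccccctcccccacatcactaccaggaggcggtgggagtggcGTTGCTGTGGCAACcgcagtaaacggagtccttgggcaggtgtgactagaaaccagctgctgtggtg
The Cfap57 promoter, on GRCr8 at chr5:137433423-137433722, minus strand, holds no match to the X-box letters in this window.
Cfap57: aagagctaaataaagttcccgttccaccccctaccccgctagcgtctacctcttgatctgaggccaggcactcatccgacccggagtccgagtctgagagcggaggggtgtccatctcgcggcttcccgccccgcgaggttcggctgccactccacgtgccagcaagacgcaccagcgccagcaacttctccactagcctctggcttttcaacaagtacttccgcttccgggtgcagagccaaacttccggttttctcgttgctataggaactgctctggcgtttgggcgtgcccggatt

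Gene counts came to between 12070941 and 18846492 per library, and the summed level of the 87 members was 1278 to 1290 CPM in H1.4 CFT libraries, 1224 to 1266 CPM in WT H1.4 libraries and 1235 to 1254 CPM in GFP libraries. With every library thinned to 12070941 counts, 22754 to 22913 genes were detected in H1.4 CFT libraries, 21626 to 21918 in WT H1.4 libraries and 21970 to 22064 in GFP libraries. Libraries numbered 1 and 2 resembled each other within each group, as did those numbered 3 and 4: the variance of the difference between libraries, over that of sampling, was 1.78 to 2.26 within these pairs and 3.79 to 9.35 across them. The labels name no batch, so values within each pair of numbers are given beside the called fold changes of named members that moved by over 1.5 times in either pair. No GFP library is numbered 1, so against GFP the values within libraries 1 and 2 rest on library GFP 2 alone. For these only the fold change is given.

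Foxj1, which switches on the genes of motile cilia, had 12.7, 14.5, 16.01 and 16.5 CPM in H1.4 CFT neurons, 7.64, 9.19, 7.94 and 8.86 CPM in WT H1.4 neurons and 7.63, 11.7 and 11.5 CPM in GFP neurons. Every H1.4 CFT library was above every other library. The log2 fold change was 0.83 ± 0.13 (SE) against WT H1.4 and 0.54 ± 0.14 (SE) against GFP, the second 0.83 within libraries 1 and 2 and 0.49 within libraries 3 and 4. Of the genes beside Foxj1 on the chromosome, Exoc7 did not pass against WT H1.4 (log2 fold change 0.10, adjusted p = 0.261), while Rnf157 fell (log2 fold change -0.44, adjusted p = 0.000296).

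Cfap44 encodes a protein of the complex that tethers the inner dynein arm to the doublet, and mutations in it impair sperm flagella. It had 5.11, 4.22, 6.13 and 6.12 CPM in H1.4 CFT neurons, 1.08, 0.796, 0.441 and 0.9103 CPM in WT H1.4 neurons and 0.945, 0.923 and 0.361 CPM in GFP neurons. Behind these levels stood 90, 75, 108 and 118 reads in the H1.4 CFT libraries, 20, 11, 8 and 15 reads in the WT H1.4 libraries and 13, 11 and 6 reads in the GFP libraries. The groups did not overlap, with log2 fold changes of 2.73 ± 0.26 (SE) against WT H1.4 and 2.90 ± 0.31 (SE) against GFP. Within libraries 1 and 2 the fold change against WT H1.4 was 2.28 and within libraries 3 and 4 it was 3.19. The genes beside it, Boc and Spice1, did not pass against WT H1.4, with log2 fold changes of -0.01 (adjusted p = 0.958) and -0.11 (adjusted p = 0.485). Cfap43, its partner in the tether complex, had 0.908, 1.46, 1.703 and 1.35 CPM in H1.4 CFT neurons, 1.14, 0.9404, 0.772 and 0.789 CPM in WT H1.4 neurons and 0.799, 0.588 and 0.361 CPM in GFP neurons. Cfap43 rose against GFP, with a log2 fold change of 1.23 ± 0.37 (SE, adjusted p = 0.0158) by edgeR's quasi-likelihood test, a call lost without library GFP 4 (adjusted p = 0.0999). Against GFP, Cfap43 was 0.56 within libraries 1 and 2, with GFP 2 the only GFP library, and 1.72 (adjusted p = 0.00466) within libraries 3 and 4. Against WT H1.4 its fold change was 0.57 (adjusted p = 0.149).

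**Figure D2:**
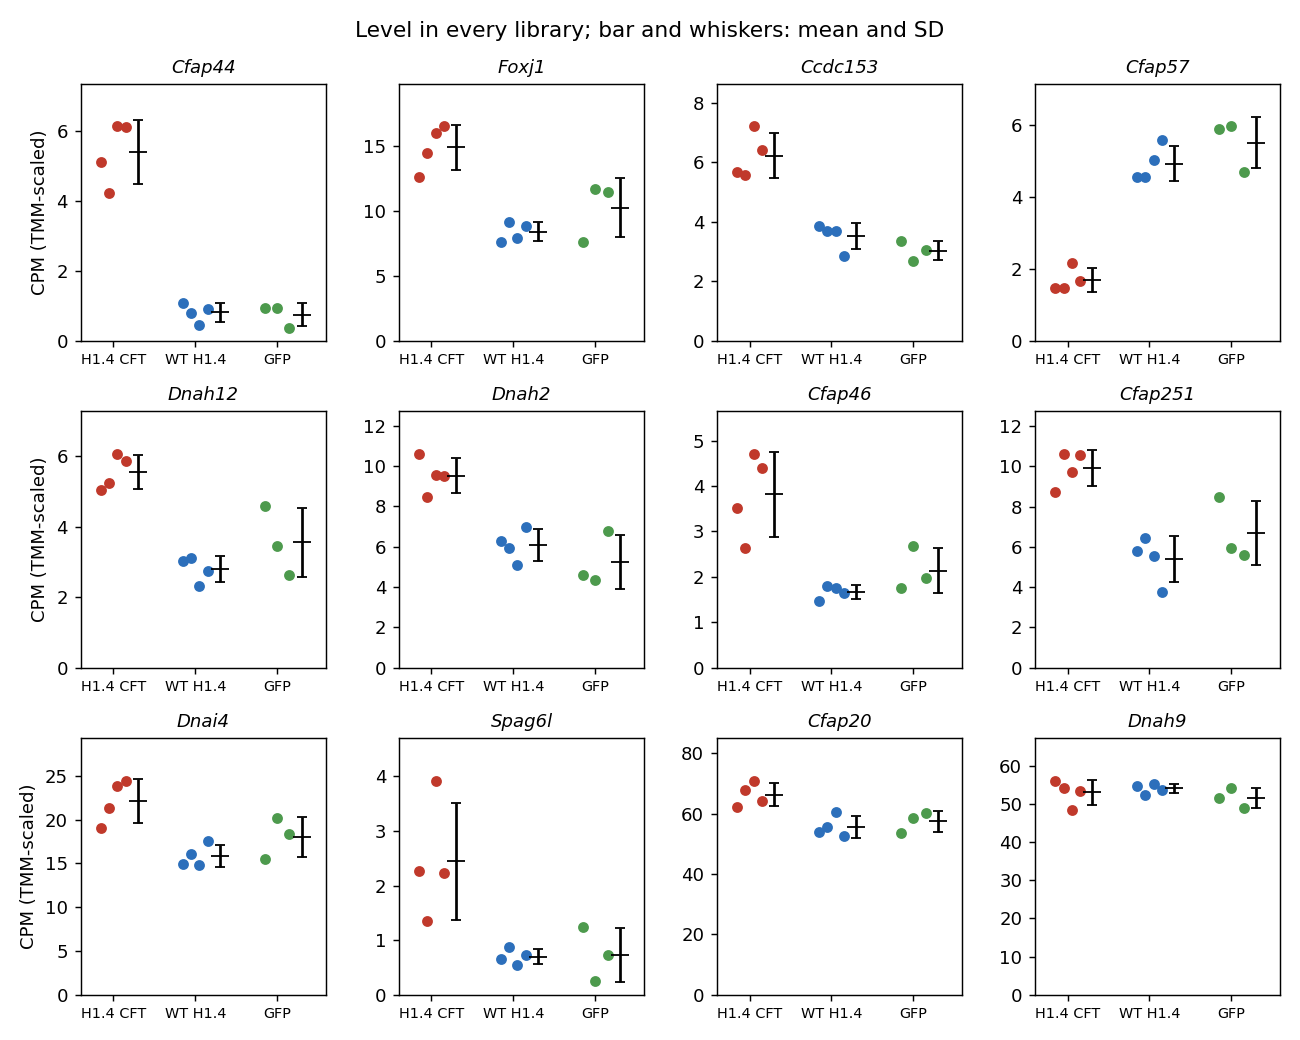
Level of 12 members in CPM (vertical axis, linear from 0) in each library, with H1.4 CFT (n = 4) left, WT H1.4 (n = 4) in the middle and GFP (n = 3) right, and the mean with SD beside the points. The H1.4 CFT points of Cfap44, between 4.22 and 6.13 CPM, stand above all others, those of Cfap57, between 1.46 and 2.16 CPM, stand below all others, and those of Dnah9 lie among the rest.

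Across the members, more passed as higher than as lower in H1.4 CFT neurons. Set against WT H1.4 neurons, 26 of the 76 members with enough counts to test passed as higher and 5 as lower (edgeR's quasi-likelihood test, Benjamini-Hochberg adjusted p under 0.05). Among all genes tested in that comparison 16.7% were higher and 19.2% lower, 35.9% in all. Without Cfap44 and Foxj1 the members gave 24 higher and 5 lower of 74. Set against GFP neurons, 21 members were higher and 6 lower, against 13.3% and 16.2% of all genes, 29.5% in all. Leaving out Cfap44 and Foxj1 made this 19 and 6 of 74. Both comparisons use the same H1.4 CFT libraries, and since the group was proposed from them nothing is read from these counts. The median log2 fold change of the tested members was 0.28 against WT H1.4 and 0.24 against GFP, where the median of all genes was 0.02 and 0.01. Every H1.4 CFT library was above every WT H1.4 library in 22 members and below in 6, against 16.1% and 18.5% of all genes. Relative to the GFP libraries these were also 22 and 6, against 17% and 18.5%. Leaving out Cfap44 and Foxj1 made this 20 and 6 in each comparison.

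Whole-set counts depended on the libraries. With libraries 1 and 2 alone, 14 members were higher and 3 lower against WT H1.4, where 11.9% and 15.4% of all genes were. Against GFP no count of members is read from that pair, which holds GFP 2 as its only GFP library. With libraries 3 and 4 alone the counts were 30 and 6 against WT H1.4 (20% and 23.3% of all genes), and 23 and 9 against GFP (17.2% and 21.4% of all genes). All 31 members called against WT H1.4 and all 27 called against GFP had the same sign of fold change in both pairs of numbers. The calls were made on these same libraries, so the shared sign is no independent support. Against WT H1.4, 21 of the 31 calls held whichever of the 11 libraries was left out, and against GFP 11 of 27 did. Without library GFP 4 the count against GFP was 12 higher and 3 lower (9.74% and 13.2% of all genes), without library GFP 2 it was 14 and 4 (11.1% and 13.4%), and without library CFT 3 it was 17 and 3 (10.7% and 13.4%). Without library CFT 2 it was 21 and 4 (12.9% and 16.8%), and without library GFP 3 it was 19 and 4 (9.89% and 13.3%).

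The calls were also counted by level. Of 18 members under 2 CPM on average over all libraries, 10 were higher against WT H1.4, where 16.7% of all genes at that level were. From 2 to 5 CPM it was 6 of 19 members and 16.6% of genes, and from 5 to 20 CPM 9 of 29 members and 16.8% of genes. At 20 CPM and over, 1 of 10 members was higher (16.7% of genes). Lower against WT H1.4, in the same order of level, were 0, 1, 4 and 0 members, where 3.6%, 10.1%, 15.8% and 27.5% of genes were. Against GFP 4, 7, 8 and 2 members were higher, where 12.4%, 13.2%, 12.5% and 14% of genes were, and 0, 2, 3 and 1 were lower, where 3.3%, 8.57%, 14% and 22.8% of genes were. In both comparisons the higher members include Cfap44 at 2 to 5 CPM and Foxj1 at 5 to 20 CPM, from which the group was proposed. Low members pass the low-count filter more readily where a group lifts them: Cfap299, Cfap65, Cfap92 and Dnai2 needed H1.4 CFT libraries to pass it, and Cfap92 passed on these libraries alone, with 11, 12, 10 and 5 reads in H1.4 CFT libraries, 2, 3, 1 and 2 in WT H1.4 libraries and 0, 2 and 1 in GFP libraries. Of the 14 members under 2 CPM that did not need H1.4 CFT libraries, 7 were higher against WT H1.4 and 3 against GFP. The 11 members below the filter were Cfap161, Cfap206, Cfap221, Cfap58l1, Cfap97d1, Dnaaf6, Spag11a, Spag11bl, Tekt3, Tekt4 and Tekt5, with at most 10 reads in any library. Spag11a was at 0 in all 11 libraries.

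**Figure D3:**
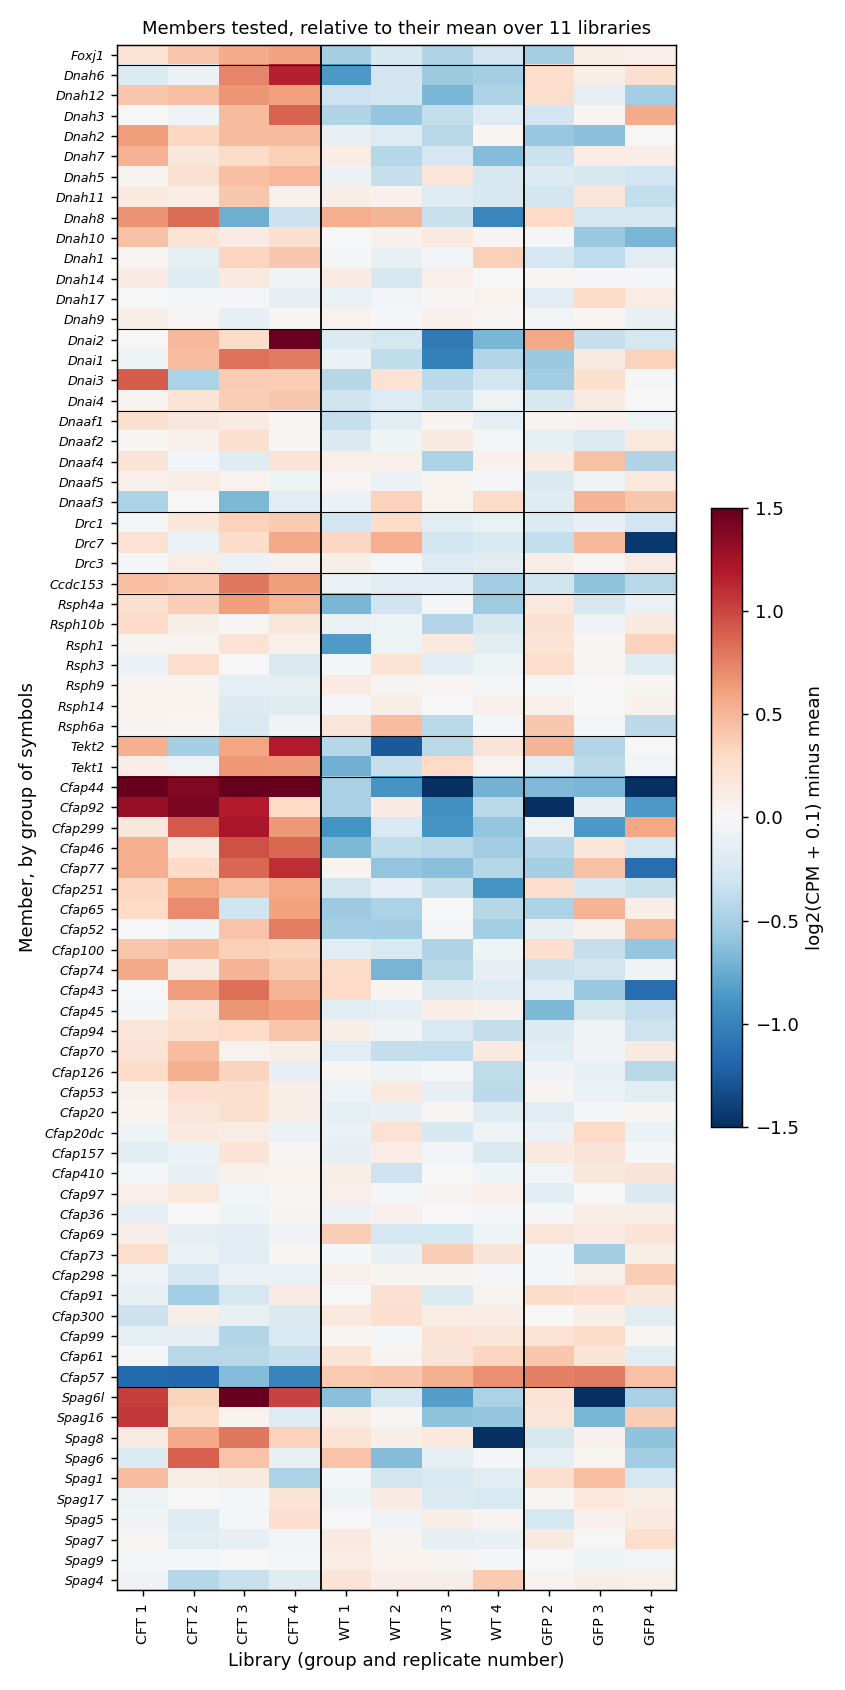
Level of the 76 tested members (rows, by group of symbols) in each library (columns, CFT for H1.4 CFT, WT for WT H1.4 and GFP), as log2(CPM + 0.1) minus the mean of the row over 11 libraries; the colour scale ends at 1.5 in both directions. The row of Cfap44 is highest in the 4 H1.4 CFT columns and that of Cfap57 lowest there, while Dnah8 is high in libraries 1 and 2 of H1.4 CFT and WT H1.4.

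Dynein heavy chains are the motors themselves. All 13 Dnah members were tested; 5 were higher in H1.4 CFT neurons against WT H1.4 and none was lower, and against GFP 4 were higher and none lower. For this and each following count by symbol or list, 16.7% of all genes were higher and 19.2% lower against WT H1.4, and 13.3% and 16.2% against GFP. Dnah12, a single-headed inner arm motor, had 5.05, 5.24, 6.08 and 5.86 CPM in H1.4 CFT neurons, 3.03, 3.11, 2.32 and 2.73 CPM in WT H1.4 neurons and 4.58, 3.44 and 2.65 CPM in GFP neurons. Dnah12 rose against WT H1.4, with a log2 fold change of 0.99 ± 0.17 (SE, adjusted p = 0.000201) in edgeR's quasi-likelihood test, and all H1.4 CFT libraries were above all others. Against GFP it rose by 0.65 (adjusted p = 0.013), a call lost without library GFP 4 (adjusted p = 0.102). The fold change was 0.16 within libraries 1 and 2, with GFP 2 the only GFP library, and 0.99 (adjusted p = 0.000267) within libraries 3 and 4.

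Dnah2, a heavy chain of the double-headed inner arm, had 10.6, 8.44, 9.54 and 9.49 CPM in H1.4 CFT neurons, 6.28, 5.93, 5.07 and 6.98 CPM in WT H1.4 neurons and 4.58, 4.37 and 6.79 CPM in GFP neurons. The H1.4 CFT libraries stood above the rest in both comparisons, at 0.65 ± 0.14 (SE, adjusted p = 0.00133) against WT H1.4 and 0.84 ± 0.16 (SE, adjusted p = 0.000569) against GFP by edgeR's quasi-likelihood test. Both calls held with each library left out. Dnah10, the other heavy chain of that arm, had 9.93, 8.44, 7.95 and 8.71 CPM in H1.4 CFT neurons, 7.31, 7.67, 8.11 and 7.53 CPM in WT H1.4 neurons and 7.19, 4.95 and 4.51 CPM in GFP neurons. Its H1.4 CFT and WT H1.4 libraries overlapped, at 0.19 (adjusted p = 0.262), and both stood above the GFP libraries, with a log2 fold change over GFP of 0.66 ± 0.15 (SE, adjusted p = 0.00258) in H1.4 CFT neurons and 0.47 (adjusted p = 0.186) in WT H1.4 neurons. The H1.4 CFT fold change over GFP was 0.35 within libraries 1 and 2, with GFP 2 the only GFP library, and 0.83 (adjusted p = 0.000122) within libraries 3 and 4.

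Dnah6, another single-headed inner arm motor, had 1.08, 1.18, 2.16 and 2.96 CPM in H1.4 CFT neurons, 0.65, 1.01, 0.827 and 0.8496 CPM in WT H1.4 neurons and 1.53, 1.34 and 1.503 CPM in GFP neurons. Dnah6 rose against WT H1.4 by 1.16 ± 0.32 (SE, adjusted p = 0.00881), a call lost without library CFT 4 (adjusted p = 0.0594), and the fold change was 0.48 (adjusted p = 0.472) within libraries 1 and 2 and 1.61 (adjusted p = 0.000193) within libraries 3 and 4. Against GFP it was 0.34 (adjusted p = 0.481), and library values overlapped. Dnah9 and Dnah17, outer arm heavy chains and the Dnah members with the most reads, did not pass in any comparison over all libraries. Dnah9 averaged 52.98 ± 3.26 CPM in H1.4 CFT neurons, 53.99 ± 1.29 CPM in WT H1.4 neurons and 51.5 ± 2.64 CPM in GFP neurons (SD, n = 4, 4 and 3). Reads of an overlapping noncoding gene, LOC120095122, fell in H1.4 CFT neurons against WT H1.4 (log2 fold change -0.48, adjusted p = 1.13e-05), and without the strand setting of the counting the reads of such pairs cannot be told apart. Dnah17 averaged 20.8 ± 0.781 CPM in H1.4 CFT neurons, 21.1 ± 0.964 CPM in WT H1.4 neurons and 22.7 ± 3.55 CPM in GFP neurons (SD). With libraries 3 and 4 alone Dnah17 was lower against GFP (-0.26, adjusted p = 0.0375). Within libraries 1 and 2, with GFP 2 the only GFP library, its fold change was 0.15. Dnah8, an outer arm heavy chain of sperm, followed the replicate numbers instead, with 115, 130, 42 and 62 reads in H1.4 CFT libraries, 110, 80, 58 and 33 in WT H1.4 libraries and 69, 40 and 56 in GFP libraries. It was chosen for description after its values were seen.

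Intermediate chains anchor the heavy chains. All 4 Dnai members were tested, and 3 were higher against WT H1.4 while 1 was higher against GFP. The 3 include Dnai2, which needed H1.4 CFT libraries to pass the low-count filter, so nothing is read from its call. Dnai4, of the inner arm, had 19.01, 21.3, 23.9 and 24.4 CPM in H1.4 CFT neurons, 14.9, 16.1, 14.8 and 17.5 CPM in WT H1.4 neurons and 15.6, 20.1 and 18.3 CPM in GFP neurons. Dnai4 rose against WT H1.4 by 0.49 ± 0.10 (SE, adjusted p = 0.000625) and against GFP by 0.30 ± 0.11 (SE, adjusted p = 0.037), the second a call lost without library CFT 3, CFT 4, GFP 2 or GFP 4 (adjusted p = 0.0799 to 0.191). Mier1, a protein-coding gene that overlaps Dnai4, did not pass against WT H1.4 (log2 fold change 0.06, adjusted p = 0.461). Dnai1, of the outer arm, had 1.36, 2.03, 2.61 and 2.54 CPM in H1.4 CFT neurons, 1.35, 1.08, 0.662 and 1.03 CPM in WT H1.4 neurons and 0.945, 1.59 and 1.86 CPM in GFP neurons. Dnai1 rose against WT H1.4 by 1.05 ± 0.29 (SE, adjusted p = 0.00841), with libraries of these groups apart by a small margin, and was 0.53 (adjusted p = 0.212) against GFP. Its fold change against WT H1.4 was 0.46 (adjusted p = 0.405) within libraries 1 and 2 and 1.61 (adjusted p = 0.000163) within libraries 3 and 4.

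Assembly factors preassemble dynein arms in the cytoplasm. Of 6 Dnaaf members 5 were tested, 1 was higher against WT H1.4 and 1 was lower against GFP. Dnaaf1 averaged 14.1 ± 0.892 CPM in H1.4 CFT neurons, 11.5 ± 1.25 CPM in WT H1.4 neurons and 13 ± 0.639 CPM in GFP neurons (SD) and rose against WT H1.4 by 0.29 ± 0.10 (SE, adjusted p = 0.0245), a call lost without library WT 1, WT 2 or CFT 1 (adjusted p = 0.0515 to 0.0938). It was 0.47 (adjusted p = 0.0036) within libraries 1 and 2 and 0.12 (adjusted p = 0.486) within libraries 3 and 4. Dnaaf2 averaged 17.1 ± 1.31 CPM in H1.4 CFT neurons, 15.6 ± 1.598 CPM in WT H1.4 neurons and 15.4 ± 2.16 CPM in GFP neurons (SD) and passed in no comparison. Dnaaf3 had 2.95, 4.17, 2.56 and 3.68 CPM in H1.4 CFT neurons, 3.9, 5.28, 4.301 and 5.097 CPM in WT H1.4 neurons and 3.63, 5.96 and 5.53 CPM in GFP neurons. Its H1.4 CFT libraries overlapped those of both other groups, and it fell against GFP, at -0.59 ± 0.21 (SE, adjusted p = 0.0354), a call lost without library CFT 1, CFT 3, GFP 3 or GFP 4 (adjusted p = 0.0742 to 0.159) and also lost with the replicate number as a block (-0.52, adjusted p = 0.0531). Against GFP, Dnaaf3 was -0.03 within libraries 1 and 2, with GFP 2 the only GFP library, and -0.87 (adjusted p = 0.00109) within libraries 3 and 4. Against WT H1.4 it was -0.47 (adjusted p = 0.06), and with the block it passed as lower there (-0.47, adjusted p = 0.0432). Cfap298, also an assembly factor, had 25.4, 22.4, 25.1 and 24.99 CPM in H1.4 CFT neurons, 28.1, 27.7, 27.6 and 26.5 CPM in WT H1.4 neurons and 26.2, 28.3 and 34.6 CPM in GFP neurons. Cfap298 fell against GFP, at -0.28 ± 0.09 (SE, adjusted p = 0.0171), a call lost without library GFP 4 (adjusted p = 0.207), and was -0.17 (adjusted p = 0.111) against WT H1.4. The fold change against GFP was -0.14 within libraries 1 and 2, with GFP 2 the only GFP library, and -0.34 (adjusted p = 0.00181) within libraries 3 and 4.

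Among proteins of the nexin link, Ccdc153, which is also used as an ependymal marker, had 5.67, 5.57, 7.21 and 6.43 CPM in H1.4 CFT neurons, 3.85, 3.69, 3.69 and 2.85 CPM in WT H1.4 neurons and 3.34, 2.69 and 3.07 CPM in GFP neurons. All H1.4 CFT libraries were above all others, and WT H1.4 and GFP libraries overlapped. The rise was 0.82 ± 0.15 (SE, adjusted p = 0.000343) against WT H1.4 and 1.03 ± 0.17 (SE, adjusted p = 0.000189) against GFP by edgeR's quasi-likelihood test, and both calls held with each library left out. The 3 Drc members, subunits of the same link, were all tested, and none passed against WT H1.4, where they had log2 fold changes of 0.09 to 0.30 and DESeq2 also called none. At an unadjusted p under 0.05, edgeR gave 1 of them. Drc1 had 7.55, 8.67, 9.77 and 10.1 CPM in H1.4 CFT neurons, 6.28, 9.26, 6.84 and 7.16 CPM in WT H1.4 neurons and 6.61, 7.05 and 6.25 CPM in GFP neurons. Drc1 rose against GFP by 0.45 ± 0.15 (SE, adjusted p = 0.0277), a call lost without library CFT 3, CFT 4, GFP 2 or GFP 4 (adjusted p = 0.0671 to 0.107). It was 0.29 within libraries 1 and 2, with GFP 2 the only GFP library, and 0.59 (adjusted p = 0.00276) within libraries 3 and 4. Against WT H1.4, Drc1 was 0.09 (adjusted p = 0.747) within libraries 1 and 2. It passed as higher there within libraries 3 and 4 (0.50, adjusted p = 0.00671) and without library WT 2 or CFT 1. Drc3 averaged 16.6 ± 1.04 CPM in H1.4 CFT neurons, 15.6 ± 1.41 CPM in WT H1.4 neurons and 17.3 ± 0.719 CPM in GFP neurons (SD).

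Radial spokes carry signals between the central pair and the motors. Of 7 Rsph members, all tested, 2 were higher against WT H1.4 and none passed against GFP. Rsph4a, a spoke head protein, had 2.16, 2.36, 2.84 and 2.59 CPM in H1.4 CFT neurons, 1.08, 1.45, 1.76 and 1.21 CPM in WT H1.4 neurons and 2.03, 1.51 and 1.68 CPM in GFP neurons. Rsph4a rose against WT H1.4 by 0.85 ± 0.22 (SE, adjusted p = 0.00585) and was 0.51 (adjusted p = 0.124) against GFP, where the libraries did not overlap either. Rsph14 and Rsph9 had the most reads. Rsph14 averaged 126 ± 12.4 CPM in H1.4 CFT neurons, 134 ± 5.32 CPM in WT H1.4 neurons and 136 ± 3.47 CPM in GFP neurons (SD) and passed in no comparison, but with libraries 3 and 4 alone it was lower against WT H1.4 (-0.22, adjusted p = 4.22e-05) and against GFP (-0.23, adjusted p = 4.52e-05). It overlaps Gnaz, a G protein gene at 128.6 CPM in H1.4 CFT neurons, 140 CPM in WT H1.4 neurons and 138.1 CPM in GFP neurons. Rsph9 averaged 54.9 ± 4.001 CPM in H1.4 CFT neurons, 58.4 ± 2.27 CPM in WT H1.4 neurons and 56.95 ± 0.775 CPM in GFP neurons (SD). It passed in no comparison over all libraries, but with libraries 3 and 4 alone it was lower against GFP (-0.16, adjusted p = 0.0479).

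The calmodulin- and spoke-associated complex sits at the base of a spoke and holds Cfap251, Cfap61 and Cfap91. Its members went different ways. Cfap251 had 8.74, 10.6, 9.71 and 10.6 CPM in H1.4 CFT neurons, 5.796, 6.44, 5.57 and 3.76 CPM in WT H1.4 neurons and 8.5, 5.96 and 5.59 CPM in GFP neurons. Cfap251 rose against WT H1.4 by 0.88 ± 0.15 (SE, adjusted p = 0.000201), and against GFP by 0.57 ± 0.17 (SE, adjusted p = 0.0143), the second a call lost without library GFP 3 or GFP 4 (adjusted p = 0.0687 to 0.0988). Against GFP, Cfap251 was 0.19 within libraries 1 and 2, with GFP 2 the only GFP library, and 0.82 (adjusted p = 7.23e-05) within libraries 3 and 4. Cfap61 had 6.47, 4.95, 4.94 and 5.18 CPM in H1.4 CFT neurons, 7.64, 6.8, 7.61 and 8.31 CPM in WT H1.4 neurons and 8.79, 7.64 and 5.95 CPM in GFP neurons. Cfap61 fell against WT H1.4, at -0.50 ± 0.14 (SE, adjusted p = 0.00885), with no overlap between these groups, and against GFP, at -0.46 ± 0.15 (SE, adjusted p = 0.0283), a call lost without library CFT 2, CFT 3, CFT 4, GFP 2 or GFP 3 (adjusted p = 0.0584 to 0.172). Cfap91, named here as the remaining subunit, averaged 3.15 ± 0.594 CPM in H1.4 CFT neurons, 3.64 ± 0.455 CPM in WT H1.4 neurons and 4.22 ± 0.173 CPM in GFP neurons (SD) and passed in no comparison.

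Cfap57, which takes part in inner dynein arm placement in other ciliated organisms, showed the lowest fold change of the members. It had 1.48, 1.46, 2.16 and 1.66 CPM in H1.4 CFT neurons, 4.55, 4.56, 5.02 and 5.58 CPM in WT H1.4 neurons and 5.88, 5.96 and 4.69 CPM in GFP neurons. Every H1.4 CFT library was below every other library, and WT H1.4 and GFP libraries overlapped. Its log2 fold change was -1.54 ± 0.18 (SE, adjusted p = 2.52e-06) against WT H1.4 and -1.70 ± 0.19 (SE, adjusted p = 2.92e-06) against GFP by edgeR's quasi-likelihood test. Both calls held with each library left out and within libraries 3 and 4, and the call against WT H1.4 also held within libraries 1 and 2. The fold change against WT H1.4 was -1.63 in libraries 1 and 2 and -1.47 in libraries 3 and 4. Its neighbours Cdc20 and Ebna1bp2 did not pass against WT H1.4 (0.18, adjusted p = 0.262, and 0.03, adjusted p = 0.768).

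The central pair has projections in which Cfap46 and Cfap74 share a complex and Spag6, Spag16 and Spag17 lie close by. Cfap46 had 3.52, 2.65, 4.71 and 4.41 CPM in H1.4 CFT neurons, 1.46, 1.81, 1.76 and 1.64 CPM in WT H1.4 neurons and 1.74, 2.69 and 1.98 CPM in GFP neurons. Cfap46 rose against WT H1.4 by 1.20 ± 0.22 (SE, adjusted p = 0.000297) without overlap, and against GFP by 0.85 ± 0.24 (SE, adjusted p = 0.0106) with overlap, the second a call lost without library GFP 2 (adjusted p = 0.0536). Cfap74 rose against WT H1.4 by 0.60 ± 0.19 (SE, adjusted p = 0.0188), a call lost without library WT 2 or WT 3 (adjusted p = 0.0627 to 0.0679). Against GFP, Cfap74 rose by 0.63 ± 0.21 (SE, adjusted p = 0.0313). That call was lost without library CFT 1, CFT 3, CFT 4, GFP 2 or GFP 3 (adjusted p = 0.0503 to 0.0993). Spag6l, a copy of Spag6 in rodents, had 2.27, 1.35, 3.92 and 2.23 CPM in H1.4 CFT neurons, 0.65, 0.868, 0.551 and 0.728 CPM in WT H1.4 neurons and 1.24, 0.252 and 0.721 CPM in GFP neurons. Spag6l rose against WT H1.4 by 1.81 ± 0.36 (SE, adjusted p = 0.000691) and against GFP by 1.69 ± 0.41 (SE, adjusted p = 0.00388), on 3 to 17 reads per GFP library. Against GFP, Spag6l was 0.54 within libraries 1 and 2, with GFP 2 the only GFP library, and 2.54 (adjusted p = 7.67e-07) within libraries 3 and 4. Spag6 itself averaged 0.946 ± 0.388 CPM in H1.4 CFT neurons, 0.713 ± 0.245 CPM in WT H1.4 neurons and 0.6301 ± 0.139 CPM in GFP neurons (SD); reads that fit both copies could not be assigned to one, so the level of either is uncertain. Spag16 and Spag17 passed in no comparison.

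Proteins of the doublet lumen and wall include Cfap20, Cfap45, Cfap52, Cfap53, Cfap77 and the tektins. Cfap20, which closes the inner junction of the doublet, had 62.2, 67.9, 70.9 and 64.1 CPM in H1.4 CFT neurons, 53.8, 55.4, 60.6 and 52.5 CPM in WT H1.4 neurons and 53.6, 58.7 and 60.3 CPM in GFP neurons. Cfap20 rose against WT H1.4 by 0.25 ± 0.06 (SE, adjusted p = 0.00224), small but without overlap, and against GFP by 0.20 ± 0.06 (SE, adjusted p = 0.021), a call lost without library CFT 3 or GFP 2 (adjusted p = 0.071 to 0.111). Cfap77 had 2.33, 1.97, 2.95 and 3.53 CPM in H1.4 CFT neurons, 1.62, 1.01, 0.993 and 1.15 CPM in WT H1.4 neurons and 1.09, 2.18 and 0.661 CPM in GFP neurons. Cfap77 rose against WT H1.4 by 1.16 ± 0.30 (SE, adjusted p = 0.00482) and against GFP by 1.09 ± 0.34 (SE, adjusted p = 0.0181), with 1 GFP library inside the H1.4 CFT range and a call lost without library CFT 4, GFP 2 or GFP 4 (adjusted p = 0.0593 to 0.132). Its fold change against WT H1.4 was 0.67 (adjusted p = 0.152) within libraries 1 and 2 and 1.59 (adjusted p = 7.85e-05) within libraries 3 and 4. Cfap45 had 3.69, 4.33, 6.02 and 5.75 CPM in H1.4 CFT neurons, 3.36, 3.4, 4.03 and 3.94 CPM in WT H1.4 neurons and 2.33, 3.11 and 2.88 CPM in GFP neurons. Every H1.4 CFT library was above every GFP library, and it rose against GFP by 0.84 ± 0.20 (SE, adjusted p = 0.00389) while against WT H1.4 it was 0.43 (adjusted p = 0.063), where it passed with the replicate number as a block (0.42, adjusted p = 0.033). An overlapping noncoding gene, LOC120096318, also rose, by 0.67 (adjusted p = 0.0172) against WT H1.4 and 1.26 (adjusted p = 0.000867) against GFP, and the strand setting is not known.

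Tektins form filaments along the doublet. Of 5 Tekt members only Tekt1 and Tekt2 had enough counts to test. Tekt1 averaged 5.76 ± 1.48 CPM in H1.4 CFT neurons, 4.06 ± 1.26 CPM in WT H1.4 neurons and 3.89 ± 0.493 CPM in GFP neurons (SD) and was 0.50 (adjusted p = 0.0754) against WT H1.4 and 0.56 (adjusted p = 0.0891) against GFP; with the replicate number as a block it passed in both (0.51, adjusted p = 0.0165, and 0.65, adjusted p = 0.0105). Tekt2 averaged 1.28 ± 0.596 CPM in H1.4 CFT neurons, 0.616 ± 0.279 CPM in WT H1.4 neurons and 0.888 ± 0.326 CPM in GFP neurons (SD) and rose against WT H1.4 by 1.04 ± 0.39 (SE, adjusted p = 0.045), a call lost without library WT 1, WT 2, WT 3, CFT 1, CFT 3, CFT 4 or GFP 4 (adjusted p = 0.0536 to 0.2) and lost by DESeq2 (adjusted p = 0.0555).

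Other Cfap genes with calls included Cfap100, a tether of the modifier of inner arms complex, which had 5.62, 5.85, 5.39 and 5.29 CPM in H1.4 CFT neurons, 3.74, 3.54, 3.03 and 4.005 CPM in WT H1.4 neurons and 5.01, 3.27 and 2.77 CPM in GFP neurons. Cfap100 rose against WT H1.4 by 0.63 ± 0.17 (SE, adjusted p = 0.00671) and against GFP by 0.59 ± 0.19 (SE, adjusted p = 0.0221), the second a call lost without library GFP 3 or GFP 4 (adjusted p = 0.0894 to 0.153). Against GFP, Cfap100 was 0.19 within libraries 1 and 2, with GFP 2 the only GFP library, and 0.84 (adjusted p = 0.00257) within libraries 3 and 4. Cfap299 had 0.794, 1.41, 1.76 and 1.14 CPM in H1.4 CFT neurons, 0.325, 0.579, 0.331 and 0.425 CPM in WT H1.4 neurons and 0.654, 0.336 and 1.08 CPM in GFP neurons. Cfap299 rose against WT H1.4 by 1.63 ± 0.39 (SE, adjusted p = 0.00258) and was 0.82 (adjusted p = 0.126) against GFP, where libraries overlapped. It needed H1.4 CFT libraries to pass the low-count filter, so nothing is read from its p-value against WT H1.4. Of 35 Cfap members 30 were tested, with 11 higher and 4 lower against WT H1.4 and 12 higher and 4 lower against GFP. Both counts of higher members include Cfap44, from which the group was proposed, and Cfap92, which passed the low-count filter on H1.4 CFT libraries alone. The count against WT H1.4 also includes Cfap299. The log2 fold changes of the Cfap members ran between -1.54 and 2.73 against WT H1.4. Cfap36, the Cfap member with the most reads, averaged 82.9 ± 4.26 CPM in H1.4 CFT neurons, 84.1 ± 3.84 CPM in WT H1.4 neurons and 88.2 ± 4.39 CPM in GFP neurons (SD) and passed in no comparison.

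Symbols that begin with Spag name sperm-associated antigens, not all of them parts of the axoneme, and 10 of 12 were tested with 1 higher and 1 lower in each H1.4 CFT comparison. Spag4, a protein of the nuclear envelope in spermatids, had 14.5, 11.1, 11.9 and 13.2 CPM in H1.4 CFT neurons, 17.1, 15.99, 15.9 and 19.6 CPM in WT H1.4 neurons and 15.6, 15.9 and 15.8 CPM in GFP neurons. Spag4 fell against WT H1.4, at -0.44 ± 0.10 (SE, adjusted p = 0.00163), and against GFP, at -0.32 ± 0.11 (SE, adjusted p = 0.0311), the second a call lost without library CFT 2, CFT 3, GFP 2, GFP 3 or GFP 4 (adjusted p = 0.0612 to 0.0831). Spag9, a scaffold of JNK signalling and vesicle transport that neurons use widely, averaged 342 ± 3.56 CPM in H1.4 CFT neurons, 360.1 ± 13.2 CPM in WT H1.4 neurons and 339 ± 6.07 CPM in GFP neurons (SD) and passed in no comparison. Spag7 averaged 22.1 ± 1.26 CPM in H1.4 CFT neurons, 23.1 ± 2.26 CPM in WT H1.4 neurons and 25.7 ± 2.31 CPM in GFP neurons (SD). It overlaps Eno3, an enolase gene, which rose in H1.4 CFT by 1.29 (adjusted p = 3.05e-07) against WT H1.4 and 1.64 (adjusted p = 1.69e-07) against GFP, while Spag7 was -0.06 (adjusted p = 0.579) and -0.22 (adjusted p = 0.0674). With the replicate number as a block Spag7 passed as lower against GFP (-0.26, adjusted p = 0.0187). In all, 46 members overlap another gene in the GRCr8 gene table and 25 a protein-coding one.

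**Figure D4:**
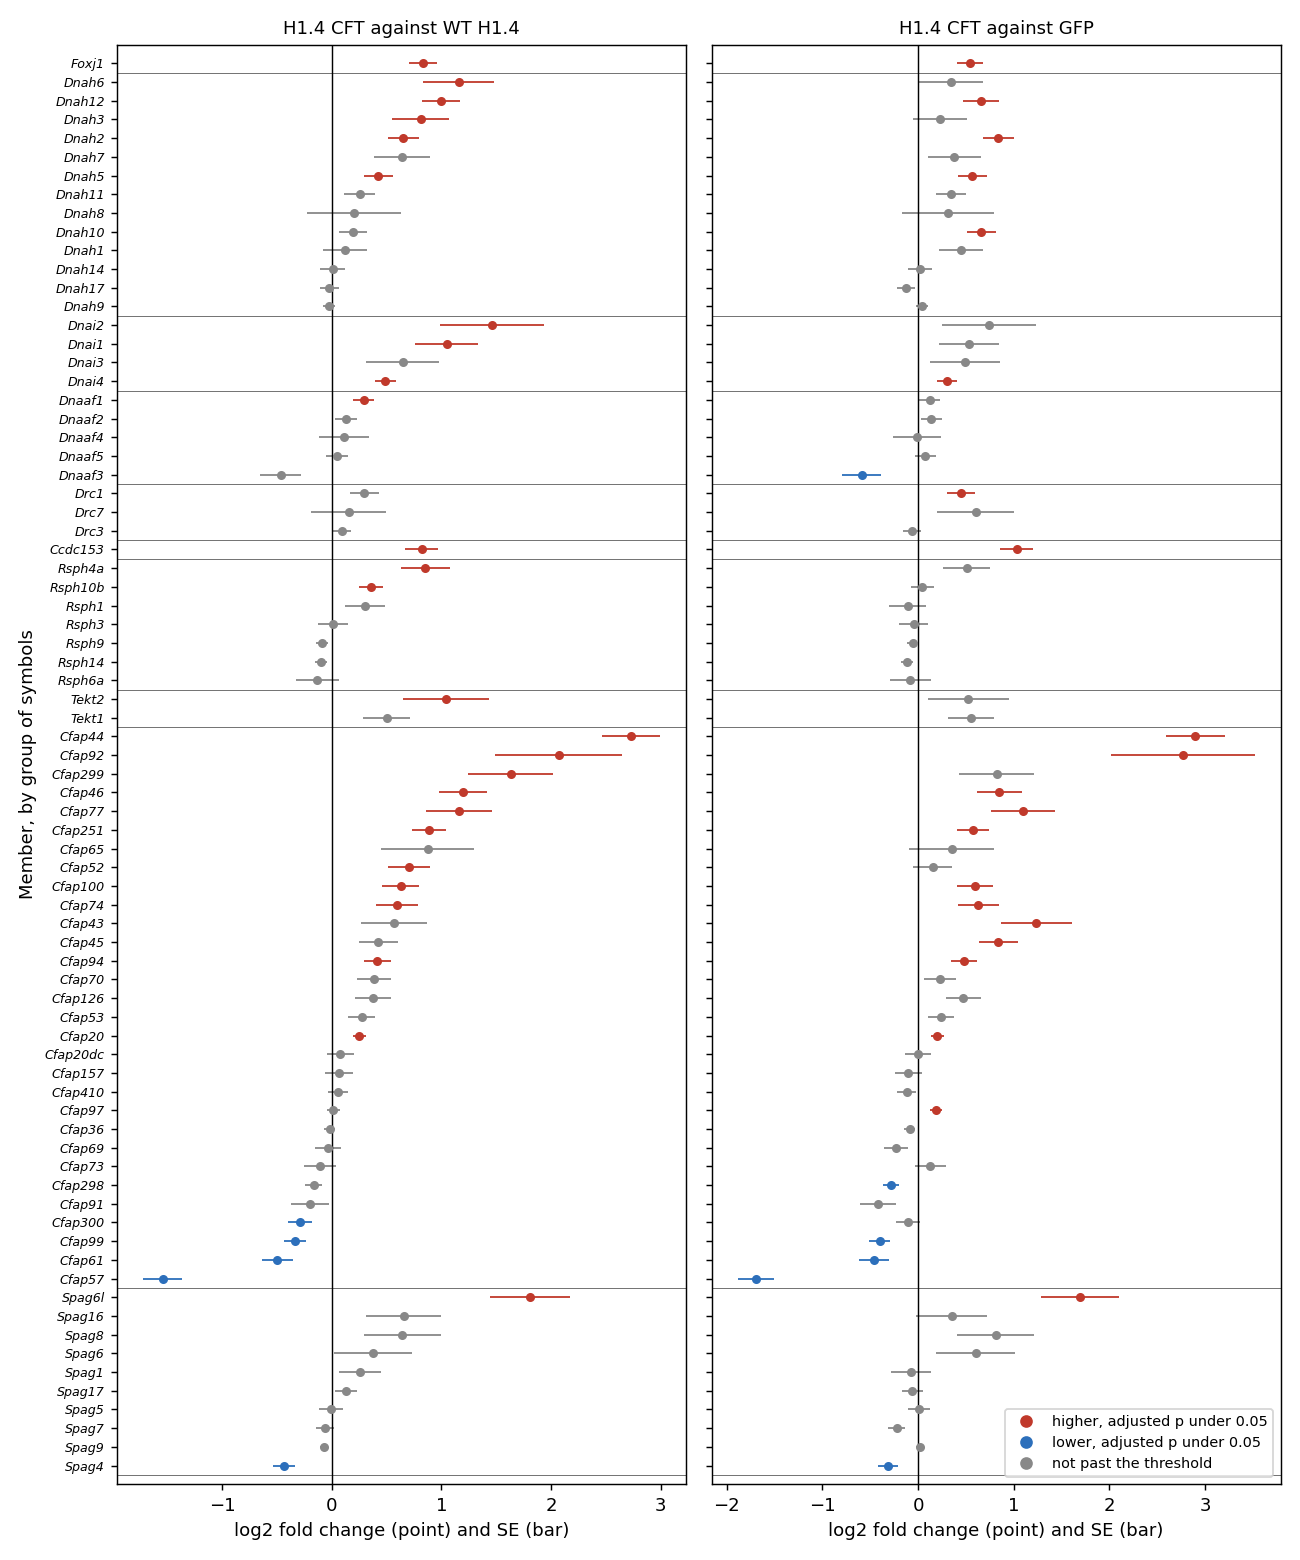
Log2 fold change (point) and SE (bar) of the 76 tested members for H1.4 CFT neurons against WT H1.4 (left) and against GFP (right), by group of symbols; the panels share the H1.4 CFT libraries. Red points passed as higher and blue points as lower: 26 and 5 on the left, 21 and 6 on the right, from -1.54 to 2.73 on the left.

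In WT H1.4 neurons against GFP neurons 0.943% of all genes passed, 0.434% higher and 0.509% lower. This comparison holds no H1.4 CFT library and was not the one the group was proposed from. None of the 76 members passed in it by edgeR's quasi-likelihood test, and 6 had an unadjusted p under 0.05, 3 in each direction, against 11.5% of all genes in either direction. DESeq2 also called 0, with 6 at an unadjusted p under 0.05 and 14 members without an adjusted p. The smallest adjusted p, 0.186, was that of Dnah10, which had 4 WT H1.4 libraries above the GFP libraries. Without library GFP 2, Dnah10 passed as higher (0.70, adjusted p = 0.026), where 0.925% of all genes were higher. With libraries 3 and 4 alone, Dnah10 was higher (0.73, adjusted p = 0.00392) while Foxj1 (-0.46, adjusted p = 0.029) and Cfap69, a central pair protein (-0.33, adjusted p = 0.0469), were lower in WT H1.4 neurons. Of all genes, 5.37% were higher and 3.85% lower with these libraries. Every WT H1.4 library was above every GFP library in 4 members and below in 1, against 6.29% and 5.94% of all genes. Cfap44 was 0.17 (adjusted p = 0.918) and Foxj1 -0.29 (adjusted p = 0.45) over all libraries. The median log2 fold change of the tested members was -0.07, and that of all genes 0.00.

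Further genes of the axoneme, with other symbols, were described from a list of 80, of which 76 were matched and 66 tested. Against WT H1.4 23 were higher and 4 lower, and against GFP 16 were higher and 3 lower, with 0 in WT H1.4 against GFP by edgeR's quasi-likelihood test and 1 by DESeq2. Their median log2 fold change was 0.18 in both H1.4 CFT comparisons. Ccdc40, a ruler protein that sets the axonemal repeat, averaged 7.94 ± 1.16 CPM in H1.4 CFT neurons, 3.55 ± 0.113 CPM in WT H1.4 neurons and 3.42 ± 0.435 CPM in GFP neurons (SD), 1.16 (adjusted p = 5.73e-06) against WT H1.4 and 1.21 (adjusted p = 2.05e-05) against GFP. Iqub, a spoke protein, averaged 13.5 ± 1.904 CPM in H1.4 CFT neurons, 6.46 ± 0.769 CPM in WT H1.4 neurons and 6.75 ± 1.62 CPM in GFP neurons (SD), 1.06 (adjusted p = 1.02e-05) and 0.99 (adjusted p = 8.43e-05) in the same order. Ccdc13, a centriolar satellite protein, averaged 26.2 ± 2.81 CPM in H1.4 CFT neurons, 17.7 ± 2.36 CPM in WT H1.4 neurons and 18.8 ± 1.65 CPM in GFP neurons (SD) and rose by 0.58 (adjusted p = 0.000135) and 0.49 (adjusted p = 0.00176). With libraries 1 and 2 alone this list gave 11 higher and 4 lower against WT H1.4, and with libraries 3 and 4 alone 23 and 4 (11.9% and 15.4%, and 20% and 23.3%, of all genes).

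Of 23 listed upstream regulators of multiciliated cells, 22 were matched and 17 tested, with 4 higher and 1 lower against WT H1.4 and 3 higher against GFP. Tp73, a transcription factor of multiciliated cells, averaged 3.09 ± 0.508 CPM in H1.4 CFT neurons, 1.82 ± 0.275 CPM in WT H1.4 neurons and 1.83 ± 0.202 CPM in GFP neurons (SD) and rose by 0.76 (adjusted p = 0.00625) against WT H1.4. Of 6 RFX factors tested against WT H1.4, Rfx4 rose by 0.22 (adjusted p = 0.00764) and Rfx1 by 0.28 (adjusted p = 0.00947), Rfx7 fell, at -0.13 (adjusted p = 0.0465), and Rfx2, Rfx3 and Rfx5 did not pass, with log2 fold changes between -0.07 and 0.14. Against GFP, Rfx1 rose by 0.33 (adjusted p = 0.00781) while Rfx4 was 0.05 (adjusted p = 0.637) and Rfx7 did not pass (adjusted p = 0.987). Mcidas, which starts the multiciliated programme, had 0 to 3 reads per library over all groups. Of 30 intraflagellar transport genes, which build primary and motile cilia alike, 8 were higher and 3 lower against either group. Traf3ip1 rose by 0.40 (adjusted p = 5.46e-05) against WT H1.4, while Kif3b and Kif3a, subunits of the kinesin that also carries axonal cargo, fell, with log2 fold changes of -0.47 (adjusted p = 4.79e-06) and -0.27 (adjusted p = 9.11e-05). Kif3b was higher in WT H1.4 than in GFP neurons, at 0.29 (adjusted p = 0.0207). Of 32 BBSome and transition zone genes of the primary cilium, 7 were higher and 3 lower against WT H1.4, and 5 and 3 against GFP. Ttc8 rose by 0.48 (adjusted p = 0.0001), Cc2d2a rose by 0.42 (adjusted p = 0.000197) and Tctn2 fell, at -0.50 (adjusted p = 0.000362).

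**Figure D5:**
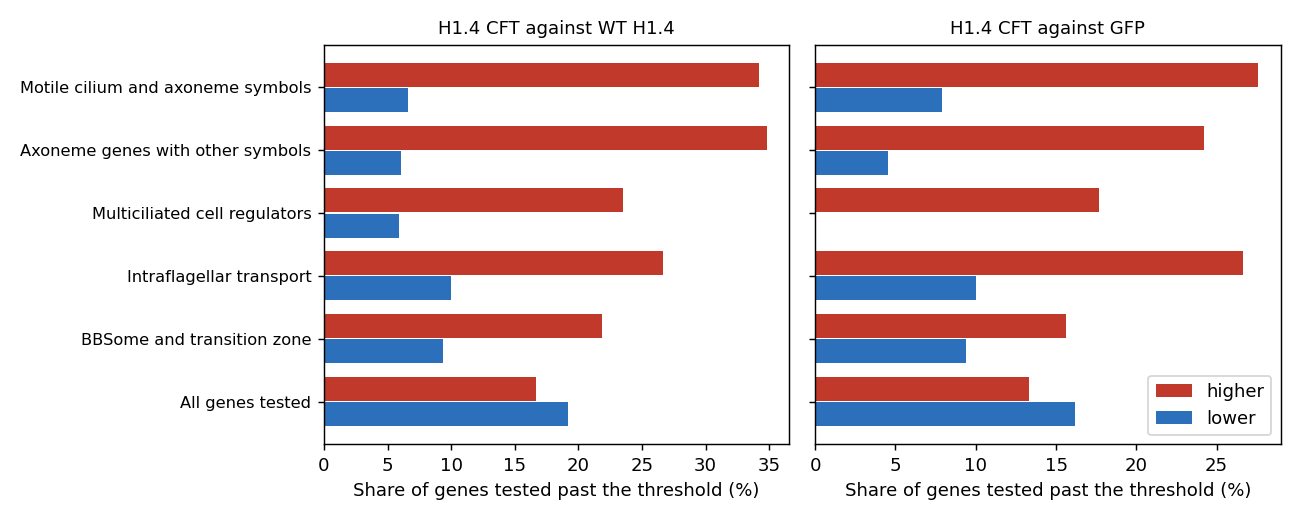
Share of the genes tested in each list (%) that passed as higher (red) or lower (blue) for H1.4 CFT neurons against WT H1.4 (left) and against GFP (right). Among all genes tested 16.7% were higher and 19.2% lower on the left and 13.3% and 16.2% on the right; the member rows hold 26 and 5 of 76 genes and 21 and 6 of 76 genes.

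Markers of cells that could carry motile cilia in such a culture were measured beside the members; in bulk RNA fewer cells of a type and less RNA per cell cannot be told apart. Of 15 ependymal markers matched, 12 were tested, with 6 higher and 1 lower against WT H1.4, and 2 higher and 1 lower against GFP. The members Ccdc153, Foxj1 and Rsph1 are on that list themselves. Ccdc153 and Foxj1 are among the 6 higher against WT H1.4 and are the 2 higher against GFP. Cd24, which neurons also express, made up most of the summed level and fell. Without Cd24 and the members the sum was 36.4 to 38.57 CPM in H1.4 CFT libraries, 26.69 to 33.57 CPM in WT H1.4 libraries and 28.88 to 35.53 CPM in GFP libraries. Sntn, a defining marker of motile cilia tips, was at 0 in all libraries, and Tmem212 averaged 0.236 CPM in H1.4 CFT neurons, 0 CPM in WT H1.4 neurons and 0.0560 CPM in GFP neurons. Of 12 tested choroid plexus markers 4 were higher against WT H1.4 and 2 against GFP, with a sum of 26.96 to 36.57 CPM in H1.4 CFT libraries, 24.76 to 25.97 CPM in WT H1.4 libraries and 24.01 to 28.31 CPM in GFP libraries. Ttr, the most abundant transcript of that tissue, averaged 1.67 ± 0.705 CPM in H1.4 CFT neurons, 0.988 ± 0.384 CPM in WT H1.4 neurons and 1.13 ± 0.354 CPM in GFP neurons (SD), and Folr1 rose by 2.06 (adjusted p = 9.24e-05) against WT H1.4.

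Male germ cell markers were measured because flagella of sperm share these genes. Of 24 matched, 9 were tested, with 3 higher and 1 lower against WT H1.4 and 2 higher against GFP, and 4 (Prm1, Akap4, Smcp and Pgk2) were at 0 in all libraries. Acr, a protease of the acrosome, averaged 3.86 ± 0.932 CPM in H1.4 CFT neurons, 0.988 ± 0.185 CPM in WT H1.4 neurons and 1.34 ± 0.233 CPM in GFP neurons (SD) and rose by 1.95 (adjusted p = 4.95e-06) against WT H1.4. The summed level was 33.65 to 36.55 CPM in H1.4 CFT libraries, 25.85 to 31.69 CPM in WT H1.4 libraries and 27.53 to 35.45 CPM in GFP libraries. Of 11 astrocyte markers, 7 were higher in H1.4 CFT neurons against WT H1.4, 2 were higher against GFP and 6 were lower in WT H1.4 against GFP, where 0.509% of all genes were. Their sum was 2215 to 2303 CPM in H1.4 CFT libraries, 1694 to 1824 CPM in WT H1.4 libraries and 2145 to 2301 CPM in GFP libraries. Of 13 neuron markers 9 were lower in H1.4 CFT against either group 2 were higher against WT H1.4 and 2 were lower in WT H1.4 against GFP, with a sum of 5012 to 6092 CPM in H1.4 CFT libraries, 7348 to 7488 CPM in WT H1.4 libraries and 7258 to 7593 CPM in GFP libraries. The part of these markers in the levels of the members was not tested.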

How the data were processed

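RNA was taken up in Trizol, purified on columns with a DNase step and sequenced as polyadenylated transcripts, per the labels' protocols. STAR 2.7.2b, the build mRatBN7.2 and HTSeq 0.10.0 are named in the submitters' processing notes. The annotation release and strand setting are not given in the sources used here. Files deposited by the authors hold whole-number read counts for each gene symbol, not normalized. The 5 summary entries of each file were left out, and 45.9% to 46.9% of reads were assigned to genes.

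From the counts, 17294 genes passed a low-count filter by group (minimum count 10, minimum total 15). All 11 libraries were fitted together in edgeR 4.0.16 (R 4.3.3) with TMM scaling, group as the term and the robust quasi-likelihood test, with Benjamini-Hochberg adjustment over all genes tested in a comparison and a threshold of 0.05; 8 residual degrees of freedom were left. The scripts were tested on simulated data. Member and gene lists were chosen with earlier results of these data known, so no list is independent support.

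Named genes were Foxj1, Cfap44, Ccdc153, the 16 other members called against WT H1.4 with the smallest p, 6 called against GFP alone, and the 2 members with the highest mean CPM of each group of symbols, with up to 3 genes of every other list. Further members are named where a complex or a library is accounted for.

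Alternatives were RLE scaling, DESeq2 1.42.0, no filter, a stricter filter (1 CPM in 3 libraries), the replicate number as a block, the number pair as a term, only the groups compared, either pair of numbers alone and each library left out. Same-numbered libraries deviated together, with correlations of deviations of 0.142 to 0.192 for H1.4 CFT with WT H1.4, 0.124 to 0.255 for H1.4 CFT with GFP, and 0.0927 to 0.206 for WT H1.4 with GFP, so the numbers pair the H1.4 CFT libraries with both other groups. Promoters came from RefSeq on GRCr8, and that table was used otherwise only for names, overlaps and neighbours.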

Additional observations from a re-analysis of the deposited data

Results flagged for a closer look

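In 4 of 74 groups of 4 libraries, H1.4 CFT or WT H1.4 values of a named gene, 1 library lay far from the other 3; chance alone gives about 1 in 20 such groups. Ccdc153 was at 2.85 CPM in library WT 4, with the other WT H1.4 libraries at 3.69 to 3.85 CPM. Cfap61 was at 6.47 CPM in library CFT 1, with the other H1.4 CFT libraries at 4.94 to 5.18 CPM. Cfap298 was at 22.4 CPM in library CFT 2, with the others at 24.99 to 25.4 CPM. Dnah17 was at 19.6 CPM in library CFT 4, with the others at 21.2 to 21.3 CPM.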

How the results depend on the processing

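Counts of members kept within 1.5 times of those reported under RLE scaling, DESeq2, both other filters, the replicate block, the number pair as a term and the groups compared only. Libraries 1 and 2 alone gave 14 higher and 3 lower in H1.4 CFT neurons against WT H1.4 and 7 higher and 2 lower in H1.4 CFT neurons against GFP; libraries 3 and 4 alone gave 1 higher and 2 lower in WT H1.4 against GFP. In libraries 1 and 2 the fit against GFP rests on library GFP 2 alone, so nothing is read from its count of calls. With single libraries left out, H1.4 CFT neurons against WT H1.4 gave 22 to 29 higher and 4 to 6 lower. H1.4 CFT against GFP then gave 12 to 21 higher and 3 to 6 lower, and WT H1.4 against GFP 0 to 1 higher and 0 lower. Of all genes, 13.2% to 17.4% were then higher and 16% to 19.7% lower in the first comparison. In the second these shares were 9.74% to 13.1% and 13.2% to 16.8%. No fold change of a called member reversed under any of these settings, all of which reuse libraries that gave the calls.

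With the replicate block, 36 members passed against WT H1.4, holding all 31 of the reported calls, and 29 against GFP, holding 25 of 27. Calls over all genes also rose, to 18.6% higher and 20.8% lower against WT H1.4 and 14.5% and 17.9% against GFP. Cfap97 (0.18, adjusted p = 0.0571) and Dnaaf3 (-0.52, adjusted p = 0.0531) were lost and the block ended no other call. DESeq2 kept 29 of 31 and 27 of 27 calls, losing Tekt2 and Cfap300 (adjusted p = 0.0557). Fitting only the groups compared kept 52 of 58 calls, and libraries 3 and 4 alone also kept 52. Libraries 1 and 2 alone kept 15 of the 31 calls against WT H1.4. Depth limits the low members: 1 read is worth 0.0518 to 0.0839 CPM, so 11 members could not be tested, and without a filter Cfap161 passed in H1.4 CFT against GFP (2.78, adjusted p = 0.0324), on 2 reads over the GFP libraries.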
